A study of Schizosaccharomyces pombe with 49 samples.

Results

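Sister chromatids of fission yeast (Schizosaccharomyces pombe) are held together by cohesin, a ring complex whose kleisin and STAG-type subunits are exchanged when cells enter meiosis. The genes described here are 7 of the 7015 features shared by the count tables, chosen by symbol. They are the meiotic kleisin gene rec8 and its mitotic counterpart rad21, the meiotic STAG-type gene rec11 and its mitotic counterpart psc3, the shugoshin genes sgo1 and sgo2, and moa1, the gene of a meiosis I kinetochore factor. All 7 were found in each of the 46 libraries with gene counts.

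RNA of mitotic or meiotic cells was sequenced, and the libraries with gene counts fall into 4 sets. The meiotic course holds 31 libraries of diploid pat1-as2 cells at 26C, 11 of them wild type for the RNA elimination genes, 10 with red1 deleted and 10 with pir1 deleted. All carry pat1-as2, an allele of the kinase that blocks meiosis in growing cells, which the inhibitor 1-NM-PP1 switches off. Cells were taken while growing in rich YEA medium, after 4 h in nitrogen-free EMM-N medium, and then hourly from 1 to 8 h with 25 µM 1-NM-PP1. Each strain and time has 1 library, except vegetative wild type, which has 2. The second set is 8 libraries of homothallic h90 cells in YEA at 30C. They are wild type, tor2-ts6 (a temperature-sensitive allele of the TORC1 kinase gene), tor2-ts6 with ubi4, cul4 or ddb1 deleted, and each of these deletion strains with pir1 deleted as well. The third is 4 libraries of cells expressing GFP-Pir1 in YEA at 30C or EMM at 18C, or its SD or SA form in EMM at 18C. The fourth is 3 libraries of mat1Msmt0 cells at 29C, namely wild type in EMM and the pir1 deletion in EMM and in YEA. Apart from these sets, mat1Msmt0 wild type, tor2-ts6 and pir1 deletion cells in YEA at 30C have no counts here. For that tor2-ts6 strain and that pir1 deletion, the authors' comparison tables were used. Induction through Pat1 bypasses the normal mating signals. Cultures of h90 cells are mixtures, and cells of the h90 and mat1Msmt0 cultures need not have entered meiosis. In bulk RNA, a larger share of cells of one stage and more RNA per cell cannot be told apart.

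Rec8 replaces Rad21 as the kleisin of most meiotic cohesin. Rec8 pairs with Rec11 along chromosome arms, where the complex serves recombination, and with Psc3 near centromeres. Sgo1 protects centromeric Rec8 from separase in meiosis I, Sgo2 serves chromosome alignment in mitosis and meiosis, and Moa1 binds Rec8 at the core centromere so that sister kinetochores face one pole. In growing cells, the RNA-binding protein Mmi1 recognises meiotic transcripts by repeats of the word TNAAAC and, with Red1 and Pir1 (gene iss10), delivers them to the nuclear exosome. Rec8 mRNA is a classic target of this system.

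The transcripts of the 7 genes differ in how densely they carry that word. Coding sequences were read from RefSeq (build ASM294v3, by locus tag) and searched for TNAAAC on the coding strand, overlaps allowed. The coding sequence of moa1 held 7 words in 519 bases, or 13.49 per kb, a density reached by 0.1% of 5124 genes. That of rec8 held 11 words, or 6.52 per kb, reached by 1.2% of genes, and that of sgo1 held 5, or 5.21 per kb, reached by 2.7%. The median gene has 1.52 per kb. Rec11 held 8 words (2.89 per kb, reached by 15.5% of genes), rad21 3 (1.59), psc3 3 (1.04) and sgo2 1 (0.51). The meiosis-specific members thus include the densest sequences, and the counterparts used in mitosis lie near or below the median gene. Within 100 bases, moa1 and rec8 held up to 3 words, a number reached by 2.6% of genes. Sgo1 held up to 2, reached by 24.2%, as did rec11 and rad21. The stretches below run from the first to the last word of the densest 100 bases in moa1 (bases 281 to 358 of the coding sequence, chromosome I, minus strand), rec8 (bases 1052 to 1086, chromosome II, plus strand) and sgo1 (bases 194 to 230, chromosome II, minus strand), with the words in capitals.
moa1: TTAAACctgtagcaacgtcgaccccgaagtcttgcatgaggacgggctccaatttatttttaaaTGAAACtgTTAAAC
rec8: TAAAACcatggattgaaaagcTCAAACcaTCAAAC
sgo1: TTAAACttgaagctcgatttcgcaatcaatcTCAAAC

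The 250 bases before each annotated transcript start were searched on both strands for ACGCGT (the MCB word bound by the S-phase factor MBF), for GTAAACA or GTAAATA (the forkhead word called FLEX, used by the meiotic factor Mei4) and for TTCTTTGTT (the TR-box word of Ste11). No searched word overlapped another in these windows. ACGCGT is in 2.6% of 5123 such windows, and among the members it was found in rec8, with 2 copies starting 49 and 20 bases before the start, and in rec11, with 1 copy starting 169 bases before it. A FLEX word is in 26.7% of windows and was found in sgo1 (79 and 55 bases before the start), moa1 (61), rec11 (36) and rad21 (30). The TR-box word, in 1.6% of windows, was in none of the 7, and psc3 and sgo2 held none of the words. The windows of rec8 (chromosome II, plus strand) and rec11 (chromosome III, minus strand) are shown because both genes have the same early timing in the course described next. Capitals mark ACGCGT and, in rec11, GTAAACA.
rec8: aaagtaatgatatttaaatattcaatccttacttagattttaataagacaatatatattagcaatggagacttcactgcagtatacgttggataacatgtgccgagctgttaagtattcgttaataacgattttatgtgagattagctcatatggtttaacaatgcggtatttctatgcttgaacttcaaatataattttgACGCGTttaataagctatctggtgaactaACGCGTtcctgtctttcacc
rec11: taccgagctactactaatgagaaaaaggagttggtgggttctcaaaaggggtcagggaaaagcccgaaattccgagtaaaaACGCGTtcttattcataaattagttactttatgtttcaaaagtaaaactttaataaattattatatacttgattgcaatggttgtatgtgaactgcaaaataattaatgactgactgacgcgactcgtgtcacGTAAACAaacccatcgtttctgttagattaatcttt
These matches describe letters and are not binding sites.

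The 46 libraries held between 10.2 and 69.0 times 1e6 gene reads, with a median of 32.1. The deleted genes had low counts in their strains: red1 fell by 6.85 ± 0.13 on the log2 scale in the red1 deletion course (SE, adjusted p = 3.45e-21), and iss10 fell by 4.26 ± 0.28 in the pir1 deletion course (adjusted p = 3.29e-10). In the h90 strains ubi4 was at 47.5 and 41.2 CPM where deleted and 168 to 395 elsewhere, and ddb1 at 8.00 and 8.32 against 95.1 to 237. The strand count of cul4 did not show its deletion (92.7 and 75.1 CPM, against 49.0 in wild type), while the count without strand did, with 14 and 39 reads against 613 to 899 in the other h90 libraries. Pir1 loss outside the course left iss10 at 0.678 to 17.0 CPM, against 52.7 to 67.9 where the gene was intact. Reads counted on the wrong strand of genes with no annotated opposite partner made up 9.94 to 12.9% in 20 course libraries (the red1 deletion and all but 1 wild type). They made up 0.221 to 1.11% in the other 11 (the pir1 deletion and vegetative wild type 2). In the course, the pir1 deletion and this kind of library therefore cannot be told apart, apart from the vegetative pair with wild type 2. Levels below are CPM (reads on the gene's own strand per 1e6 gene reads), or CPM per kb of annotated mRNA where genes are compared. Reads are PCR copies without molecular identifiers, so their number shows counting precision only.

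In vegetative wild-type diploids the mitotic forms dominated. In wild type 1 and 2, rad21 stood at 33.0 and 23.6 CPM per kb, sgo2 at 40.9 and 22.7, and psc3 at 24.6 and 16.1. The shugoshin gene sgo1 stood at 16.2 and 9.3 CPM per kb, rec11 at 8.41 and 4.89, rec8 at 7.16 and 4.33, and moa1 at 2.23 and 0.596. The order from psc3 downward was the same in both libraries, while rad21 and sgo2 changed places. Between neighbours, rec8 and rec11 differed by less than either gene differed between the 2 libraries. Moa1 rested on 41 and 6 reads.

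The members had their highest levels at different times of meiosis. In wild type, rec8 went from 13.4 and 8.10 CPM in growing cells to 379 after starvation and 560 at 1 h, then to 278 at 2 h, 25.5 at 3 h and 5.29 at 4 h. It stayed at 5.63 at 5 h and was at 25.4 at 8 h. Rec8 was highest at 1 h and below both vegetative values at 4 h. Rec11 followed a similar line with a slower fall, from 26.9 and 15.6 CPM in growing cells to 697 after starvation, 1190 at 1 h, 811 at 2 h, 202 at 3 h, 76.6 at 4 h and 47.4 at 8 h. At 1 h the order per kb was rec11 at 371, rec8 at 299, sgo2 at 64.4, sgo1 at 63.7, psc3 at 44.2, moa1 at 35.7 and rad21 at 29.4 CPM per kb. With 1 library at that time, neighbours in this order have no measured spread.

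The centromere protectors came later. Moa1 went from 1.16 and 0.309 CPM in growing wild type to 5.62 after starvation, 18.5 at 1 h, 68.0 at 2 h and 58.3 at 3 h, and was at 6.65 at 4 h and 1.00 at 6 h. Sgo1 went from 15.7 and 9.02 CPM to 59.0 after starvation and 61.8 at 1 h, reached 250 at 3 h, and was at 44.1 at 5 h and 14 at 8 h. At 3 h sgo1 (258 CPM per kb) and moa1 (112) led the members, with rec11 at 63.1 and rec8 at 13.6. The mitotic kleisin gene rad21 ran the other way, from 108 and 77.0 CPM in growing cells and 113 after starvation to 95.9 at 1 h, 35.9 at 2 h and 14.1 at 8 h. Psc3 was at 232 CPM after starvation, 86.7 at 2 h, 14.7 at 4 h and 57.2 at 6 h, and sgo2 moved least, between 28.9 and 146 CPM. The meiotic transcription factor gene mei4 was highest at 3 h (513 CPM) in this course.

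**Figure D1:**
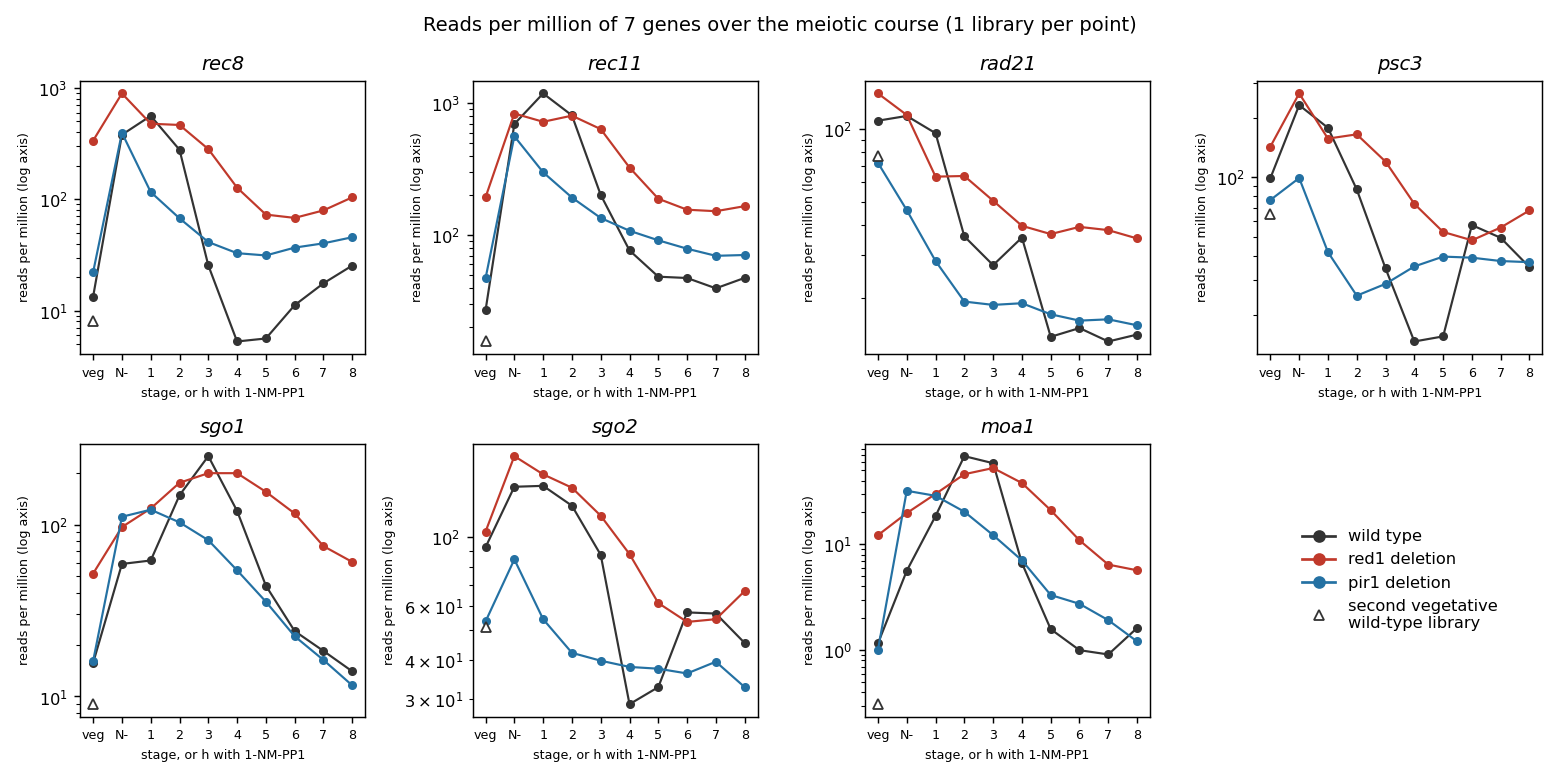
CPM (log axis, range set per panel) of each gene against stage (veg, growing cells; N-, 4 h without nitrogen; then hours with 1-NM-PP1), 1 library per point. In wild type rec8 and rec11 are highest at 1 h, moa1 at 2 h and sgo1 at 3 h, and the red1 deletion starts with rec8 at 336 CPM in growing cells.

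The stages were compared over all 3 strains, with the strain as a block (edgeR quasi-likelihood test on 6583 genes, Benjamini-Hochberg adjusted p, threshold 0.05, as for all adjusted p below unless another tool is named). Starved against growing cells called 40.1% of genes and 5 of the 7 members, all higher. Rec11 rose by 3.35 ± 0.52 (log2 fold change, SE, adjusted p = 8.58e-06), rec8 by 3.08 ± 0.80 (0.00287), moa1 by 2.92 ± 0.77 (0.00341), sgo1 by 1.91 ± 0.50 (0.00292) and sgo2 by 0.55 ± 0.21 (0.0396). Without the pir1 deletion the moa1 value was 1.48 (adjusted p = 0.245) and the sgo1 value 1.37 (0.0977). The sgo2 call was lost when any of the 3 strains was left out (0.37 to 0.63, adjusted p from 0.0718 to 0.284). The pheromone markers of M cells moved too in starvation, from a sum of 140 and 42.9 CPM in growing wild type to 7140, and their part in the result was not tested.

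From starvation to 1-3 h, 10.2% of genes and 1 member were called, rad21, which fell by 0.86 ± 0.26 on the log2 scale (adjusted p = 0.0293). That call was lost without the red1 deletion (-0.77, adjusted p = 0.294) and without the pir1 deletion (-0.90, 0.176). From 1-3 h to 4-6 h, 43.7% of genes and 4 members were called, all lower. Rec8 fell by 2.52 ± 0.53 (adjusted p = 0.000593), moa1 by 2.09 ± 0.48 (0.00123), rec11 by 1.83 ± 0.32 (0.000168) and sgo2 by 0.52 ± 0.13 (0.00258). The sgo2 call was lost without wild type (-0.35, adjusted p = 0.072) and without the red1 deletion (-0.42, 0.0529). From 4-6 h to 7-8 h, 0.137% of genes and 0 members were called by edgeR, while 2 members had an unadjusted p under 0.05 and DESeq2 called 2. DESeq2 called many more of all genes than edgeR in this step, as given in the last section. The 0.137% is therefore no background for its 2 members, nor for the unadjusted count. Consecutive hours stand in for replicates in these fits, and the labels do not say that libraries came from separate cultures.

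Deletion of red1, whose product is a core scaffold of the RNA elimination machinery, raised 4 of the 7 members over the course. In growing cells of the red1 deletion, rec8 stood at 336 CPM against 13.4 and 8.10 in wild type, rec11 at 194 against 26.9 and 15.6, moa1 at 12.2 against 1.16 and 0.309, and sgo1 at 51.9 against 15.7 and 9.02. Each of these 4 values lies far above both wild-type libraries. Rad21 (140 against 108 and 77.0), psc3 (143 against 99.0 and 64.9) and sgo2 (104 against 92.6 and 51.3) also lay above both in CPM, by less. After scaling, only psc3 among these did (97.5 against 78.0 and 80.2). Scaled rad21 was at 95.2 against 84.9 and 95.2, and scaled sgo2 at 70.5 against 72.9 and 63.4. As a pair of single libraries with wild type 1, which has no test, the log2 ratios were 4.48 for rec8, 3.16 for moa1, 2.68 for rec11 and 1.55 for sgo1, all past 1, as were 11.7% of the genes with 50 or more reads in one of the libraries.

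At 4 h, when wild-type rec8 was at 5.29 CPM, the red1 deletion had 127. At 5, 6, 7 and 8 h it had 72.8, 68.0, 79.4 and 104 CPM, against 5.63, 11.2, 17.6 and 25.4 in wild type. Only at 1 h was rec8 lower in the deletion, also after scaling (lower at 1 of 10 times). Sgo1 stood at 199 CPM at 4 h and still at 60.6 at 8 h in the deletion, against 120 and 14 in wild type. After scaling, sgo1 was nearly level at 4 h (155 against 146) and still higher at 8 h (58.3 against 21.9). Moa1 was at 37.9 CPM at 4 h and 10.9 at 6 h, against 6.65 and 1.00.

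Over the 10 times, with the time as a block (6497 genes), 29% of genes were called between the red1 deletion and wild type. Rec8 was higher by 2.18 ± 0.44 (log2, adjusted p = 0.000673, at 9 of 10 times), moa1 by 1.68 ± 0.43 (0.00579, 8 of 10), rec11 by 1.05 ± 0.27 (0.00599, 8 of 10) and sgo1 by 0.94 ± 0.26 (0.0089, 9 of 10). These 4 calls held in all 19 other settings and left-out times run for them. Among these settings, the planned count column and the column without strand are the same fit. For sgo1 that fit rests on at most 41 reads per library, so it can hardly check the sgo1 call. Rad21 (0.35, adjusted p = 0.112), psc3 (0.44, 0.17) and sgo2 (0.08, 0.672) did not pass. The count depends on the scale: with scaling to total reads the median of all genes went from -0.0152 to 0.358, 2519 genes were higher and 228 lower in place of 809 and 1072, and all 7 members were called.

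By phase, 8.02% of genes were called before induction (vegetative and starved), 10.4% at 1-3 h, 25.5% at 4-6 h and 23.4% at 7-8 h. Before induction rec8 was higher by 3.30 ± 0.67 (adjusted p = 0.00696), moa1 by 2.94 ± 0.68 (0.0151) and rec11 by 1.73 ± 0.43 (0.0222). All 3 calls rest on the growing cells, since with starved cells alone the values were 1.23 (adjusted p = 0.61), 1.81 (0.311) and 0.26 (0.91). At 1-3 h 0 members were called by edgeR, 0 at an unadjusted p under 0.05 and 0 by DESeq2. At 4-6 h rec8 was higher by 3.11 ± 0.62 (0.0018), moa1 by 2.64 ± 0.62 (0.0054), rec11 by 1.40 ± 0.39 (0.0151) and sgo1 by 1.05 ± 0.38 (0.0496). The moa1 call was lost without 5 h (2.45, adjusted p = 0.0721), and the rec11 call without 4 h (1.37, 0.0506), 5 h (1.48, 0.0907) or 6 h (1.39, 0.059). The sgo1 call was lost in 8 of 17 alternatives, among which the planned column and the column without strand are the same fit. Its value was 0.62 (0.329) without 6 h. At 7-8 h the sgo1 difference was 1.51 ± 0.46 (0.0284), and it was not called without 2 h (1.51, 0.0511), without 7 h (1.41, 0.397) or without 8 h (1.62, 0.199).

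Whether the difference itself varied between phases was tested with an F test, which called 7.45% of genes and 0 members by edgeR, though 2 had an unadjusted p under 0.05 (moa1 at an adjusted p of 0.0665, rec8 at 0.142); no other tool was run for this test. The phases are therefore not shown to differ. Stage genes moved too, though not all in one direction. Spo5, expressed in meiosis II, was at 149 CPM in growing red1-deleted cells against 9.47 and 2.37, and at 1240 against 128 at 6 h. Mei4 was at 160 CPM against 14.8 and 12.5 in growing cells, and at 287 against 42.1 at 6 h. The spore gene isp3 was at 286 CPM against 119 and 11.9 in growing cells, but was lower at 6 h (40200 against 86000). Their part in the members' result was not tested.

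Between the pir1 deletion and wild type, the fit over the course called 48.4% of genes and 1 member, sgo2, which was lower by 0.35 ± 0.13 on the log2 scale (-0.35, adjusted p = 0.0266, at 8 of 10 times). That call was lost without 1 h (-0.28, adjusted p = 0.0755), without 2 h (-0.29, 0.071) or without 3 h (-0.32, 0.0565). Rec8 was at 0.92 (0.0795). In starved cells rec8 was at 394 CPM without Pir1 and 379 with it, moa1 at 32.0 and 5.62, and sgo1 at 111 and 59.0, and at 1 h rec8 was at 116 and 560. The course without Pir1 thus held its highest rec8 and rec11 in starved cells, and the wild type at 1 h. Stage genes moved with this: in starved cells mei4 stood at 509 CPM without Pir1 and 72.1 with it, and the spore gene isp3 at 21400 and 2760. Their part was not tested.

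By phase, the pir1 deletion differed from wild type in 4.73% of genes before induction, 47.9% at 1-3 h, 31% at 4-6 h and 16.7% at 7-8 h. The first of these, 307 genes, was 85 with reads corrected for the wrong-strand share and 766 by DESeq2. Before induction 0 members were called by edgeR (2 at an unadjusted p under 0.05, 1 by DESeq2). At 1-3 h rec11 was lower by 1.10 ± 0.39 (-1.10, adjusted p = 0.0301) and sgo2 by 0.83 ± 0.19 (-0.83, 0.00196). The rec11 call was lost without 1 h (-0.81, adjusted p = 0.178), 2 h (-0.93, 0.183) or 5 h (-1.04, 0.0584). At 4-6 h rec8 was higher by 2.33 ± 0.60 (0.00781), at 32.8, 31.3 and 36.8 CPM against 5.29, 5.63 and 11.2, and it was not called without 4 h (2.18, 0.0509) or without 5 h (2.36, 0.0535). At 7-8 h edgeR and DESeq2 each called 0 members, and 0 had an unadjusted p under 0.05. The F test over phases called 9.03% of genes and 0 members (3 at an unadjusted p under 0.05, with rec11 at an adjusted p of 0.0617; no other tool was run).

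Set against each other, the 2 deletions differed in 54.3% of genes. Of the 7 members, 6 were higher in the red1 deletion and psc3 was not called (adjusted p = 0.0691). These libraries differ in their wrong-strand share as well, and the cause cannot be told apart. Several calls were lost when 1 time was left out. These were rec8 without growing cells (0.95, adjusted p = 0.0506), rec11 without 3 h (0.68, 0.0621), sgo1 without 6, 7 or 8 h (0.66 to 0.70) and moa1 without growing cells or any hour from 4 to 8 h (0.86 to 1.13).

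The ratio of the meiotic to the mitotic form within a library does not depend on scaling. In growing wild type, the log2 ratio of rec8 to rad21 per kb was -2.20 and -2.45, and that of rec11 to psc3 was -1.55 and -1.72, so the mitotic form was the more abundant. After starvation in wild type they were 2.56 and 1.92, and at 2 h 3.76 and 3.56. At 3 h they were 0.71 and 2.88, and at 4 h -1.95 and 2.71. Both ratios were close at 2 h and apart from 3 h, and at 4 h rec11 was above psc3 while rec8 was below rad21. In growing red1-deleted cells the ratios were 2.07 and 0.77, above 0 in both pairs, and in growing pir1-deleted cells -0.89 and -0.37. From 4 to 8 h the rec8 to rad21 ratio ran from 1.60 to 2.49 in the red1 deletion, from 1.60 to 2.37 in the pir1 deletion and from -1.95 to 1.66 in wild type.

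**Figure D2:**
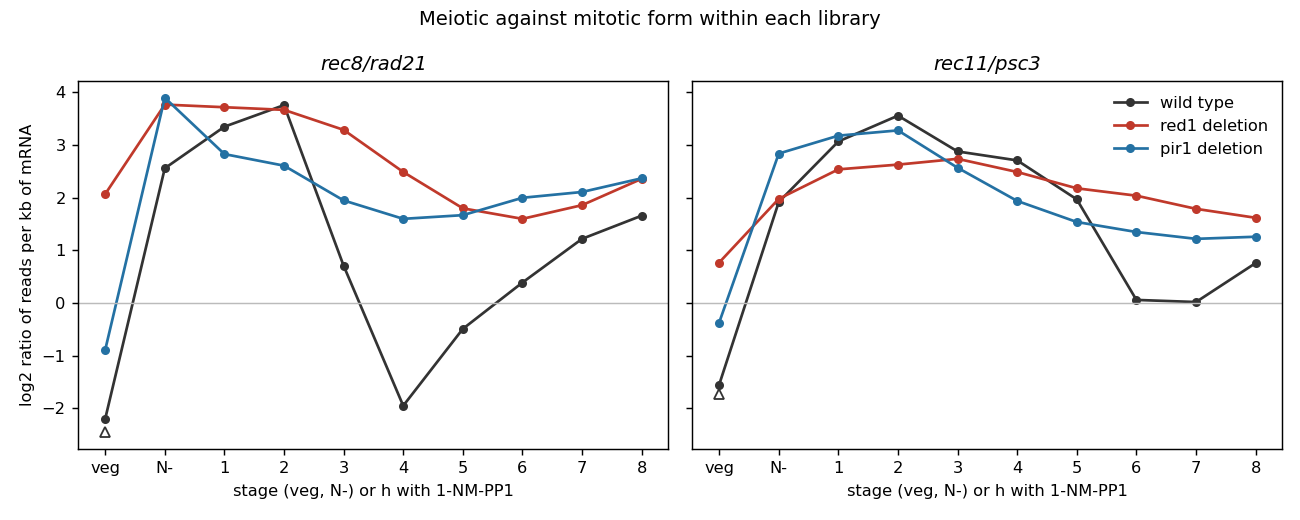
Log2 ratio of reads per kb of mRNA, rec8 to rad21 (left) and rec11 to psc3 (right), against stage, 1 library per point. The open triangle is vegetative wild type 2. In wild type the rec8 to rad21 ratio drops from 3.76 at 2 h to -1.95 at 4 h, while the rec11 to psc3 ratio is still 2.71 at 4 h.

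Levels of rad21 and psc3 in mid meiosis are affected by reads of the other strand. Over psc3 the opposite strand held 90.5 CPM in growing wild type 1, 177 at 2 h and 101 at 4 h, when the psc3 strand itself held 14.7. Over rad21 it held 31.2 CPM in growing wild type 1 and 88.9 at 4 h, against 35.5 on the rad21 strand. With 9.94 to 12.9% of reads on the wrong strand in these libraries, reads of the other strand are counted in the sense column too. Corrected for that share, psc3 at 4 h was 2.38 CPM and rad21 27.9, and the rec11 to psc3 ratio of reads moved from 2.38 to 5.17 on the log2 scale. In the annotation rad21 overlaps pof3 on the other strand over 28.7% of its length and psc3 overlaps SPAC607.02C over 24.7%. RefSeq also places noncoding RNAs on the other strand that the count tables do not list, SPNCRNA.7328 over 63.4% of rad21 and SPNCRNA.2910, SPNCRNA.2911 and SPNCRNA.2912 over 7.6%, 6.4% and 13% of psc3, so transcripts of these neighbours and antisense RNA cannot be told apart. The shugoshin genes lie wholly inside features of the other strand, sgo1 inside txc1 and sgo2 inside the noncoding SPNCRNA.930. Without strand, sgo2 had 0 reads in all course libraries and sgo1 at most 41, so all values here use the strand count; without strand sgo2 could not be fitted in the course.

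**Figure D3:**
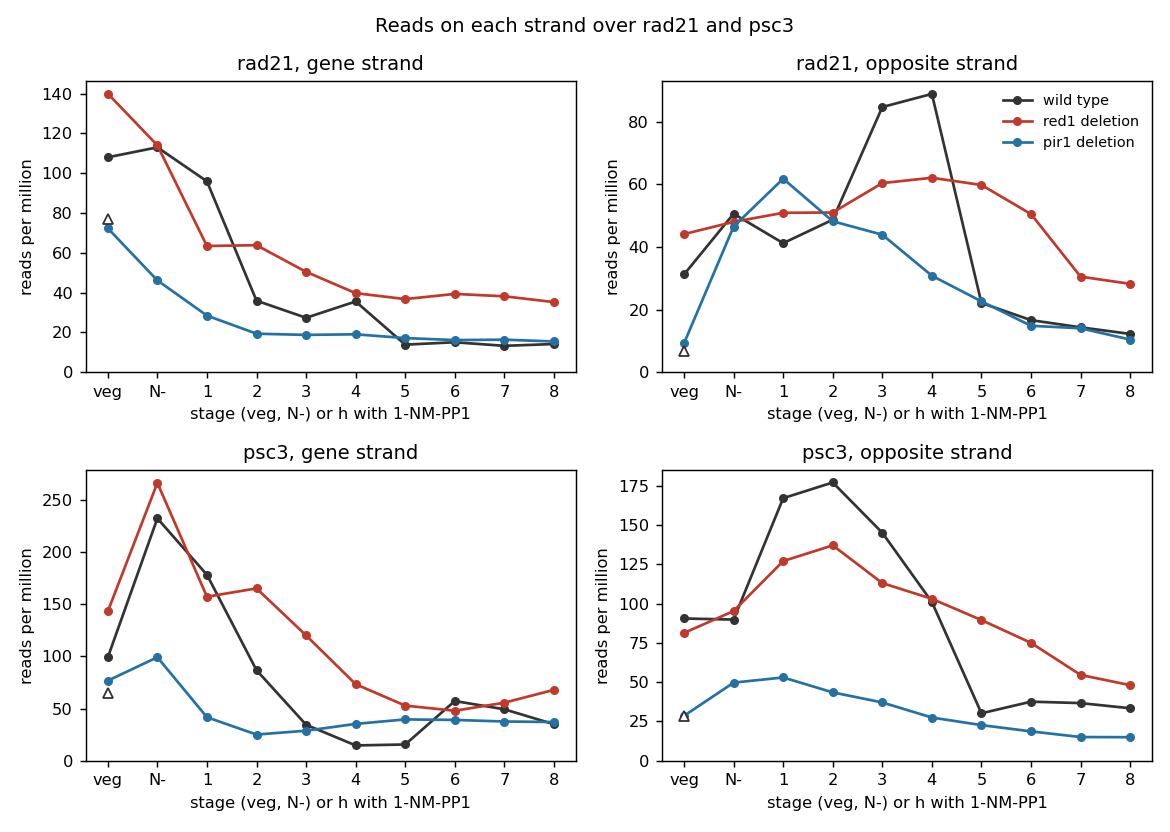
CPM on the gene's strand (left) and on the opposite strand (right) over rad21 and psc3 against stage, 1 library per point, axes from 0. In wild type the opposite strand of rad21 is highest at 4 h (88.9) and that of psc3 at 2 h (177), while their own strands fall. The open triangle is vegetative wild type 2.

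Pir1 was also lost outside the course, in growing cells of 5 backgrounds (11 libraries, with the 2 vegetative diploid wild types). Rec8 and rec11 were higher without Pir1 in all 5. In tor2-ts6 ubi4 deletion cells rec8 stood at 22.3 CPM with Pir1 and 70.2 without it, with cul4 deleted at 17.6 and 181, and with ddb1 deleted at 32.6 and 189. In mat1Msmt0 cells in EMM rec8 stood at 14.3 and 29.3 CPM, and in growing diploids at 13.4 and 8.10 against 22.2. Rec11 stood at 34.3 and 104 CPM (ubi4 deletion), 34.3 and 131 (cul4), 36.7 and 171 (ddb1), 20.4 and 52.5 (mat1Msmt0), and 26.9 and 15.6 against 47.1 (diploid). The values without Pir1 lay above those with Pir1 within each background. Moa1 was higher without Pir1 in the tor2-ts6 strains (1.28 against 0.433 CPM, 4.14 against 0.591, 5.62 against 1.61) and in mat1Msmt0 cells (2.23 against 1.49). The diploid value of 1.01 CPM lay between the 2 wild types, but after scaling it lay above both (1.13 against 0.913 and 0.382).

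With the background as a block, the 11 libraries gave rec11 a rise of 1.65 ± 0.15 (log2, adjusted p = 0.00441), 1 of 28 genes called of 6210 (0.451%). That call held in all 14 other settings and left-out libraries or backgrounds. Rec8 had the larger fold, 1.89 ± 0.34, but did not pass (adjusted p = 0.0909), nor did moa1 (1.35 ± 0.42, 0.654). DESeq2 called rec8 (1.90, adjusted p = 1.74e-06, by DESeq2). The share of all genes that DESeq2 called is not given here, so the 0.451% of edgeR is no background for that call. None of the remaining members passed: sgo1 was at 0.14 ± 0.14 and psc3 at -0.01 ± 0.07, with rad21 and sgo2 between them. In the 6 tor2-ts6 libraries alone, 0.431% of 6261 genes were called, and rec11 rose by 1.95 ± 0.14 (0.0215), but without the ddb1 pair it was not called (1.78, 0.272). Rec8 was at 2.54 ± 0.34 (0.101), called without the cul4 pair (2.14, 0.0247), and moa1 at 2.06 ± 0.32 (0.155).

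**Figure D4:**
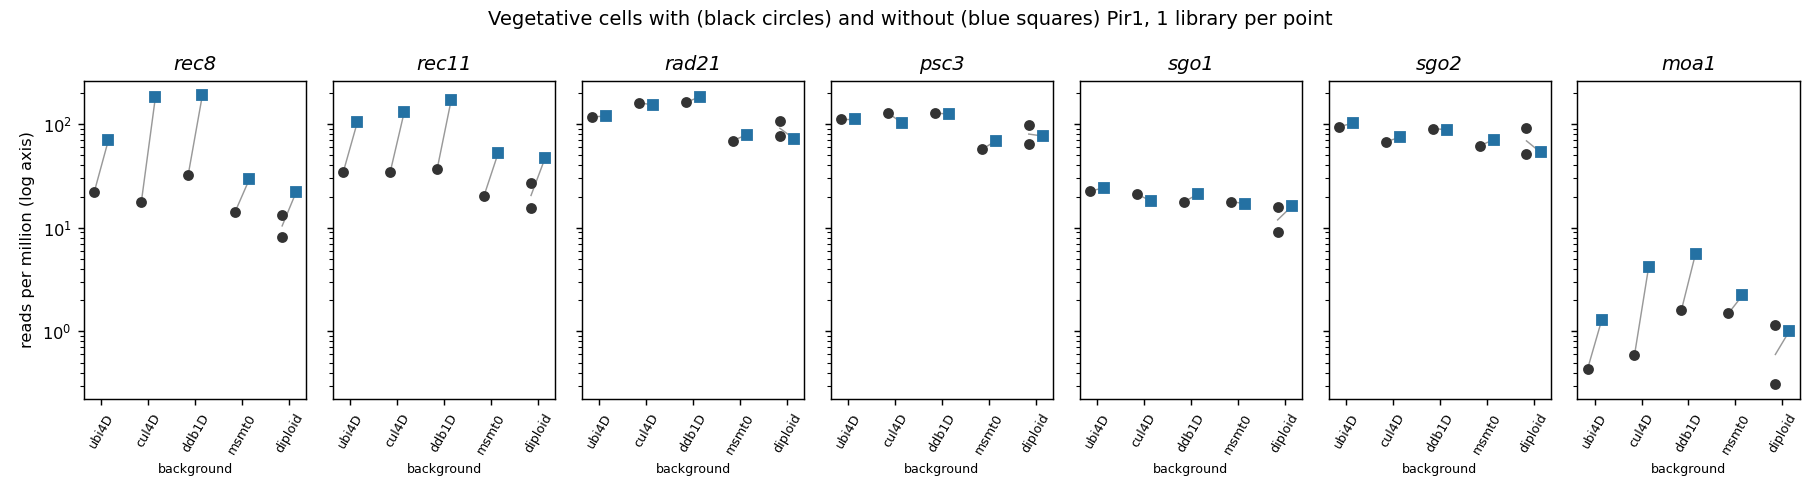
CPM (log axis shared by all panels) in growing cells with Pir1 (black circles) and without it (blue squares) in 5 backgrounds, 1 library per point, the diploid having 2 with Pir1. Grey lines join each pair, from the geometric mean where there are 2. Rec8 and rec11 are higher without Pir1 in each background, rec8 at 181 against 17.6 CPM with cul4 deleted, while rad21, psc3 and the shugoshin genes stay close to level.

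As pairs of single libraries, which have no replicate check, a gene counts as past the fold when its log2 ratio is 1 or more in size and 1 of the 2 libraries has 50 or more of its reads. Loss of Pir1 put rec8 and rec11 past the fold with ubi4 deleted (1.63 and 1.57; 1.21% of genes past it), with cul4 deleted (3.41 and 1.99; 6.02%) and with ddb1 deleted (2.54 and 2.22; 1.69%). Moa1 was past it with cul4 deleted (2.54) and ddb1 deleted (1.72), and had too few reads with ubi4 deleted. In mat1Msmt0 cells in EMM only rec11 was past it (1.28, with rec8 at 0.96; 1.58% of genes). Vegetative wild type 2 shares the low wrong-strand share of the pir1-deleted diploid, and against it rec11 was at 1.43 and rec8 at 1.29, both past the fold, as were 5.16% of genes. In pir1-deleted mat1Msmt0 cells, EMM against YEA put 7.17% of genes and 0 members past the fold, with members from -0.06 (rad21) to 0.68 (moa1). Summed M cell markers were at 1570 CPM with Pir1 and 1700 without it where ubi4 was deleted, at 350 and 170 with cul4 deleted, and at 949 and 307 with ddb1 deleted. The stage genes spo5 and mei4 were higher without Pir1 in all 3 pairs. Spo5 was at 28.4 and 68.4 CPM with ubi4 deleted, 23.1 and 157 with cul4 deleted, and 39.2 and 150 with ddb1 deleted, and mei4 at 36.0 and 101, 29.9 and 136, and 36.6 and 95.5. The spore gene isp3 was at 97.9 and 275 CPM, 218 and 124, and 136 and 91.8. The part of these genes in the members' result was not tested.

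In h90 cells, the tor2-ts6 allele came with higher levels of the meiosis-specific genes. Rec8 stood at 65.9 CPM in tor2-ts6 and 8.99 in wild type, rec11 at 103 and 12.6, moa1 at 4.66 and 0.571 (54 and 8 reads) and sgo1 at 27.2 and 9.78. The log2 ratios of scaled CPM were 2.62 for rec11, 2.47 for rec8, 2.38 for moa1 and 1.08 for sgo1, 4 of 7 members past the fold beside 31.5% of all genes. Psc3 (0.65), rad21 (0.56) and sgo2 (0.49) were not past it. Cells of this strain also had summed M cell markers (4 of 4 detected) at 3550 CPM against 12, P cell markers (2 of 2) at 2860 against 15.8, and mei2, whose product inactivates Mmi1 in meiosis, at 2720 against 10.5. The stage gene spo5 was at 416 CPM against 3.07. Their part in the result was not tested.

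Deletion of parts of the ubiquitin system in tor2-ts6 cells came with lower rec8, rec11 and moa1, with 1 library each and no test. Against tor2-ts6, rec8 had log2 ratios of -1.49 with ubi4 (polyubiquitin) deleted, -2.06 with cul4 (ubiquitin ligase scaffold) deleted and -1.05 with ddb1 (its adaptor) deleted. Rec11 had -1.51, -1.74 and -1.51, and moa1 -2.94, -2.78 and -1.48 (5, 6 and 23 reads against 54). Past the fold were 9.56% of genes for ubi4, 14.9% for cul4 and 7.5% for ddb1. The other 4 members lay between -0.69 (sgo2, cul4) and 0.43 (rad21, ddb1). The 3 ratios share the tor2-ts6 library. M cell markers summed to 1570, 350 and 949 CPM in the deletions against 3550, mei2 stood at 1050, 406 and 1000 against 2720, and spo5 at 28.4, 23.1 and 39.2 against 416. These moved with the members, and their part was not tested. With Pir1 also deleted, rec8 stood at 70.2, 181 and 189 CPM, above the 65.9 of tor2-ts6 itself, and rec11 at 104, 131 and 171 against 103.

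In cells with GFP-Pir1, rec8 stood at 6.97 CPM in YEA at 30C and 90.2 in EMM at 18C, rec11 at 9.17 and 145, and moa1 at 0.431 and 3.79. Medium and temperature changed together and cannot be told apart. Summed M cell markers were at 82.3 and 798 CPM in the same 2 libraries, P cell markers at 33.2 and 269, spo5 at 2.86 and 501 and isp3 at 26.8 and 8440, and their part in the result was not tested. The log2 ratios were 3.79 for rec11, 3.50 for rec8 and 2.78 for moa1, past the fold beside 20.1% of genes, and the other 4 lay between 0.01 (sgo2) and 0.31 (sgo1). With the SD form in EMM, rec8 stood at 32.1 CPM, rec11 at 55.9 and moa1 at 0.740. The ratios to GFP-Pir1 were -1.41 for rec8, -1.30 for rec11 and -2.19 for moa1, all past the fold beside 3.97% of genes. With the SA form, rec11 stood at 153 CPM (0.12), rec8 at 56.3 (-0.65) and moa1 at 2.51 (-0.55), and 0.809% of genes and 0 members were past the fold. Summed M cell markers were at 798, 828 and 898 CPM in the GFP-Pir1, SD and SA libraries in EMM, and mei2 at 993, 831 and 918. The stage genes were lowest in the SD library among these 3: spo5 was at 501, 61.6 and 398 CPM, mei4 at 69.8, 43.1 and 65.9, and isp3 at 8440, 4170 and 9920. Their part in the members' result was not tested.

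**Figure D5:**
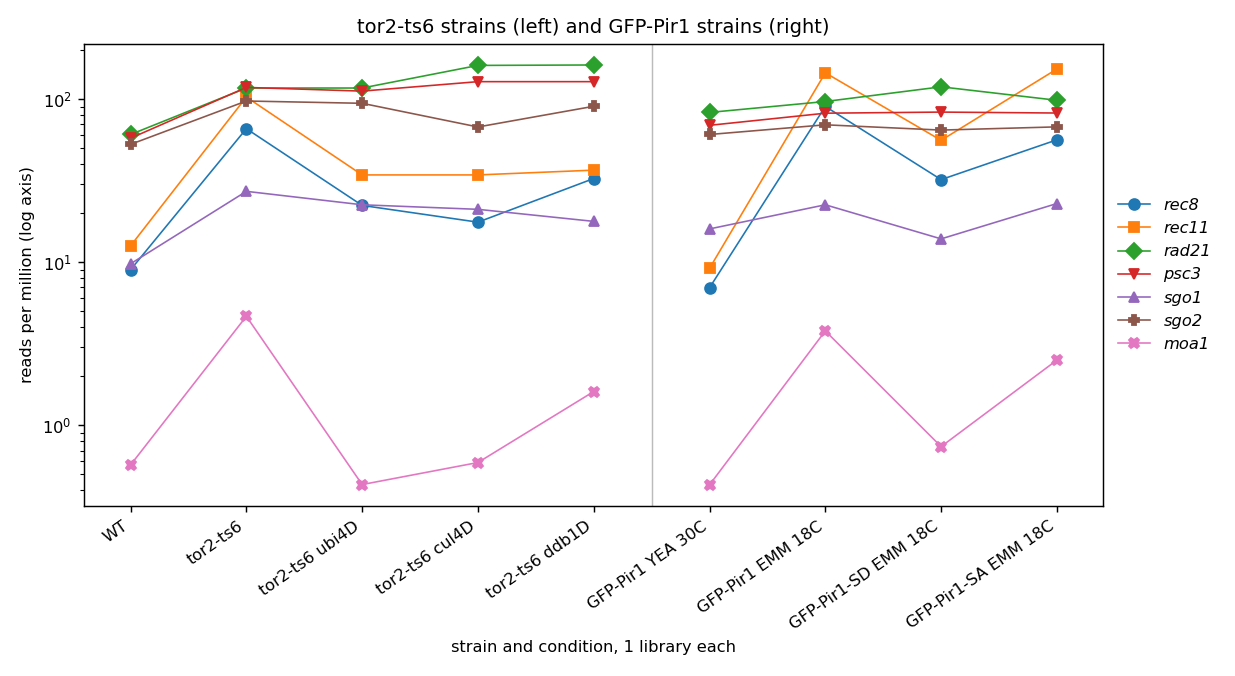
CPM (log axis) of the 7 genes in h90 tor2-ts6 strains (left of the grey line) and GFP-Pir1 strains (right), 1 library per point; lines only guide the eye. Rec8, rec11 and moa1 are higher in tor2-ts6 and in EMM at 18C and lower in the ubiquitin-system deletions and the SD form, while rad21 spans 60.7 to 184 CPM, psc3 57.6 to 128 and sgo2 52.8 to 102 in the h90 strains.

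For mat1Msmt0 cells in YEA at 30C there are no counts, but the authors' deposited table gives normalized log2 fold changes and q-values for the tor2-ts6 and pir1 deletion strains. In the authors' deposited table for tor2-ts6, moa1 was at 1.65 (q = 0.00591), rec8 at 1.26 (q = 1.17e-16), sgo2 just under the limit at 0.9997 (q = 2.81e-84) and rec11 at 0.17 (q = 0.192). There 36.1% of genes and 2 members had q under 0.05 and an absolute log2 of 1 or more. In the authors' deposited table for the pir1 deletion, rec11 was at 1.49 (q = 2.51e-59), rec8 at 1.27 (q = 2.37e-18), moa1 at 1.2 (q = 0.0658) and psc3 at -0.31 (q = 1.02e-08), with 7.98% of genes and 2 members past both limits. The h90 and mat1Msmt0 values for rec11 in tor2-ts6 are thus 2.62 and 0.17, from different mating types and different computations.

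The genes most like each member over the 31 course libraries were taken by Pearson r of log2 scaled CPM, among 4308 genes with a symbol and a mean of at least 20 reads. For rec8 they were the linear element gene rec27 (0.967), the meiotic kinase gene mek1 (0.958) and mug10 (0.938). For rec11 they were dic1 (0.972), mcp6 (0.970), which codes for a horsetail movement protein, and rec25 (0.965), a linear element gene. In the other 15 libraries, which were not used to choose them, r was 0.890, 0.961 and 0.898 for the rec8 neighbours and 0.892, 0.895 and 0.940 for the rec11 neighbours. The neighbours of sgo1 were mto1 (0.960), ndc80 (0.954), a kinetochore gene, and fml1 (0.951), with r of 0.059, 0.655 and 0.510 in the other libraries. Those of moa1 were eme1 (0.954), cbf12 (0.920) and fkh2 (0.913), with r of 0.526, 0.351 and 0.335 in the other libraries. Rad21 was closest to coq10 (0.927), psc3 to prp22 (0.955) and sgo2 to pnn1 (0.963). In the other libraries these r were -0.274, 0.687 and -0.403, so they did not stay positive for rad21 and sgo2. The next neighbours of psc3, rns1 (0.942) and kpa1 (0.938), had -0.778 and 0.805 there. Among members, rec8 and rec11 had an r of 0.876 in the course and 0.939 in the other 15 libraries, and sgo1 and moa1 0.902 and 0.353. The libraries share depth, strain and stage, so these values are descriptions.

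The other cohesin genes were counted beside the members. Of 9 core and regulator genes (psm1, psm3, mis4, ssl3, pds5, wpl1, eso1, cut1, cut2), 0 were called over the course in the red1 deletion (median 0.25, against -0.0152 over all genes). Of 12 partners (bub1, swi6, par1, paa1, ppa2, ark1, bir1, pic1, plo1, hhp1, hhp2, rec10), 3 were higher and 1 lower (median 0.115), beside 12.5% of all genes higher and 16.5% lower. Those higher were rec10 (0.90 ± 0.30, adjusted p = 0.0285), a linear element gene and binding partner of Rec11, bir1 (0.87 ± 0.24, 0.00876), the survivin gene that Sgo2 recruits, and bub1 (0.20 ± 0.06, 0.016), whose kinase marks centromeric chromatin for shugoshin. The phosphatase gene ppa2 was lower (-0.25 ± 0.07, 0.00589). In starved against growing cells, mis4 (2.06 ± 0.32, 1.04e-05), psm1 (2.10 ± 0.59, 0.00526) and psm3 (1.91 ± 0.58, 0.00969) rose, the loader and both SMC subunits, as did rec10 (3.41 ± 0.58, 3.29e-05) and bub1 (0.27 ± 0.11, 0.0434). These are 3 of 9 and 2 of 12 genes, beside 19.8% of all genes higher and 20.3% lower. Loss of Pir1 in growing cells called 0 of the 9 and 0 of the 12 by edgeR.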

How the data were processed

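Per the labels' protocols, the kits were ScriptSeq v2 or Ultra II Directional and the sequencers MiSeq or NextSeq, with neither tied to a sample. The submitters' processing notes name Trimmomatic and STAR; their versions, the build and the gene models were not given in the sources used here. Each deposited table of counts has raw reads per gene in 3 columns, 1 regardless of strand and 1 per strand. The authors' 2 comparison tables hold deposited log2 fold changes, normalized by the authors, and a q-value (adjusted p-value), per the file headers; their 4 value columns were not used. Of 49 libraries, 46 have counts, 2 a comparison table, and a mat1Msmt0 wild type was not analysed here.

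The planned rule would have used the column without strand for the course. It was replaced by the strand column in every library after the counts were seen, since sgo1 and sgo2 are hardly counted otherwise. The planned column is an alternative. Lines of the tables without a gene name did not enter library sizes. Of 7015 feature IDs, 6845 (97.6%) matched RefSeq, used for names and sequence only.

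Tests used edgeR 4.0.16 in R 4.3.3 (TMM, filterByExpr, glmQLFTest, Benjamini-Hochberg, threshold 0.05) and were tested on simulated data. TMM factors ran from 0.6 to 1.59 in the course. Pairs of single libraries used log2 ratios of TMM-scaled CPM with a prior count of 2. Alternatives were DESeq2 1.42.0 (test and size factors), no filter, other count columns, a prior count of 0.5, left-out times, strains, backgrounds and libraries and, chosen after seeing the data, scaling to total counts and a correction for wrong-strand reads. Named genes are the members, 2 fixed partner lists, the 3 genes most like each member, stage and mating markers and the deleted or regulatory genes. The members and lists were chosen with earlier results of these data known. The pair of vegetative red1 deletion and wild type 1 was added after the data were seen.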

Additional observations from a re-analysis of the deposited data

Results flagged for a closer look

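Reads on the opposite strand, outside the main measurement, exceeded the level in growing wild type over both mitotic genes. Over rad21 they reached 88.9 CPM in wild type at 4 h, against at most 31.2 in growing wild type, and over psc3 177 CPM at 2 h, against at most 90.5. Stretches of annotated neighbours on that strand are part of both counts.

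The effect of the pir1 deletion on rec11 had one sign at every hour from 1 to 3 h and the other at every later hour. On scaled CPM it was below 0 at each of 1, 2 and 3 h (mean -1.0 on the log2 scale) and above 0 at each of 4, 5 and 6 h (mean 0.81), a gap of 1.81. At 7 and 8 h it was above 0 as well (mean 0.86), a gap of 1.85 from 1-3 h. At 3 h rec11 was nearly level, at 159 scaled CPM against 165 in wild type. Before induction it was above wild type too, at 503 against 459 in starved cells and 52.6 against 21.2 and 19.3 in growing cells. For rad21 the effect was below 0 at 1-3 h (mean -0.52) and above 0 at 7-8 h (mean 0.37), a gap of 0.90. At 3 h rad21 was nearly level as well (21.9 against 22.3). The signs at each hour rest on 1 library per strain. These pairs of phases were not tested against each other. The F test over all phases did not call rec11 (adjusted p = 0.0617) or rad21 (0.413) with edgeR. All these values share the wild-type libraries.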

How the results depend on the processing

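Of the single-member values under alternatives, 932 kept their side of the threshold, 17 gained a call, 51 lost one and 2 moved. Direction was compared for the fits and for pairs past the fold, but not for pairs short of it. These are not all separate checks. In the course the planned column and the column without strand are the same counts, entered under both names. In the h90, GFP-Pir1 and mat1Msmt0 libraries the planned column is the strand column itself, so it repeats the reported values there. Among the values compared for direction, the sign turned for 1 that was never called, sgo2 between the red1 deletion and wild type. It was at 0.08, and between -0.01 and 0.13 when times were left out. Under total-count scaling, the members called were 7 (red1 deletion, course), 2 (pir1 deletion, course), 7 (red1 deletion, 4-6 h), 5 (red1 deletion, 7-8 h), 4 (pir1 deletion, 1-3 h), 1 and 1 (phases differ), 2 (1-3 h), 7 (4-6 h) and 2 (7-8 h against 4-6 h), and 2 past the fold in the mat1Msmt0 pair in EMM. That scaling moved the split of higher and lower genes in the red1 deletion from 809 and 1072 to 2519 and 228, and in the pir1 deletion from 1447 and 1695 to 641 and 2519. DESeq2 called 2 (pir1 deletion, course), 2 (red1 deletion, 7-8 h, also with its size factors in edgeR), 1 (pir1 deletion, before), 2 (1-3 h), 2 (7-8 h against 4-6 h), 2 and 3 (Pir1 loss, all and tor2-ts6). In that last stage step DESeq2 called 978 genes and edgeR 9. Without strand, where sgo2 has no fit, the counts were 5 (red1 deletion, course), 4 (before) and 1 (1-3 h), 5 (red1 against pir1 deletion), 3 (starved), 0 (1-3 h) and 3 (4-6 h against 1-3 h). In the pir1 deletion the call over the course was then sgo1, higher by 1.66 (adjusted p = 0.00159), in place of sgo2. At 1-3 h sgo1 was then higher (2.10, 0.00535) and rec11 lower (-1.07, 0.0319). These sgo1 values rest on at most 41 reads per library. By strand, edgeR gave sgo1 0.15 (adjusted p = 0.652) over the course and 0.15 (0.76) at 1-3 h. With the wrong-strand correction the genes called in the pir1 deletion before induction went from 307 to 85. Leaving out times gave 0 to 1 members (pir1 deletion, course), 0 to 3 (red1 deletion, before), 1 to 4 (4-6 h), 0 to 2 (7-8 h), 0 to 1 (pir1 deletion, before), 1 to 4 (1-3 h), 0 to 2 (4-6 h), and 0 to 3 and 0 to 2 for phases that differ. Leaving out strains gave 2 to 5 (starved) and 0 to 3 (1-3 h), and leaving out backgrounds 0 to 2 (tor2-ts6). The number of all genes called changed with the setting too, as given above for total-count scaling and DESeq2. It is not given for each setting, so the member counts alone do not separate the members from all genes. The causes were not tested. Replicate numbers in the labels pair no libraries, so times, strains or backgrounds served as the blocks. Moa1 has 5 to 79 reads in the h90 libraries, which limits its ratios.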
